A study of Rattus norvegicus with 12 samples.

Results

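The cytosolic ribosomal protein genes encode the protein part of the ribosome that translates nuclear messenger RNAs. Their messenger RNAs were followed in the testis of prepubertal rats with Affymetrix whole-genome arrays. Members were chosen by symbol: an Rpl or Rps name with its number, as well as Rpsa and the stalk proteins Rplp0, Rplp1 and Rplp2, leaving out the Rps6k kinases. Only probe sets that the platform annotation gives to 1 gene alone were used. The rule found 48 genes, read by 55 probe sets, among 14217 genes with such a probe set. Of a gene with several probe sets, which was the case for 6 genes, the probe set with the highest mean over the 12 arrays stood for the gene. Rplp1, Rplp2 and other ribosomal proteins that the rule did not reach were not analysed here, except through probe sets shared by several genes, described further on.

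The 12 arrays formed 4 groups of 3, all of male Sprague-Dawley pups that had been nursed on a casein form of the purified AIN-93G diet. From postnatal day 21 to 33 they ate either that casein diet or the same diet made with soy protein isolate, a source of isoflavones, plant compounds able to bind estrogen receptors. On each diet 1 group was untreated, and the other received 17beta estradiol at a daily 10 µg per kg from an osmotic minipump placed under the skin. Testes were frozen on postnatal day 34, when meiosis is under way and spermatids are forming. Testis identity was clear in all groups, since the spermatid gene Tnp2 and the Sertoli cell gene Cldn11 lay above 11 log2 on every array (lowest 12.33 and 11.48). All levels are log2 intensities of a probe set, and an intensity depends on the probes as well as on the transcript, so levels of different genes are not set against each other. In a whole testis, fewer cells of a type and less RNA per cell cannot be told apart.

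Each ribosome holds a single copy of nearly every ribosomal protein, so these genes are known for being transcribed and translated in step. Their messenger RNAs typically begin with a run of pyrimidines, the terminal oligopyrimidine tract, through which growth signals acting by way of mTOR and Larp1 set their translation. The testis is also known for using paralogues of some core ribosomal proteins in germ cells.

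Of the 48 genes, 28 encode large-subunit proteins, 1 (Rplp0) the base of the stalk, 13 small-subunit proteins, and 6 are paralogues of a core gene: Rpl3l, Rpl7l1, Rpl26l1, Rpl39l1, Rps27l and Rps4y2. All but 3 passed the filter on low intensity, 5.69 log2, and 45 were tested. The 3 below it were Rpl30 (mean 4.46 log2), Rpl28 (5.41) and Rpl3l (5.15). Rpl30 and Rpl28 are core proteins, as is Rps13, which had the lowest mean of the tested members (6.19). In 4 probe sets that carry the symbol of Rps13, Rpl28 or Rpl30 beside other symbols, the mean lay between 12.2 and 13.3 log2. The signal of these 4 may come from the other genes they name, and the levels of Rps13, Rpl28 and Rpl30 are given for their own probe sets only. Most members were bright: 40 of the 45 had a mean above 11 log2 and the median member stood at 12.65, a level that 1.11% of all tested probe sets reached. The 3 brightest probe sets were those of Rps29 (13.71), Rpl27a (13.58) and Rps23 (13.52), and the lowest after Rps13 were those of Rpl26l1 (6.50) and Rps27l (6.99).

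Most ribosomal protein genes were higher with estradiol on both diets, each by a small amount. A gene is said to have risen or fallen where limma's moderated test, fitted to all 21729 probe sets that passed the filter, gave a Benjamini-Hochberg adjusted p under 0.05. On casein, 30 of 45 members rose and 0 fell, while over all probe sets 22% rose and 19.8% fell. The median member was 0.24 log2 higher with estradiol, a 1.18-fold difference, against 0.024 for the median of all probe sets. On soy, 41 of 45 rose and 0 fell, beside 25.3% and 24.3% of all probe sets, and the median was 0.33 log2 or 1.26-fold, against −0.022. No member was lower at an unadjusted p under 0.05 on either diet (0 of 45 each time, limma), and 33 on casein and 41 on soy were higher. For this and later counts at an unadjusted p, the share of all probe sets is not given. Differences ran from −0.11 to 0.55 on casein and from −0.062 to 0.79 on soy.

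Array by array, the quantile-normalized levels were compared. In 40 members on casein all 3 estradiol arrays lay above all 3 untreated arrays, which held for 32% of all probe sets. On soy this was so for 41 members, beside 27.9% of all probe sets. Averaged over the 45 members, each taken relative to its own 12-array mean, the casein arrays lay at −0.13, −0.15 and −0.12 log2 and the soy arrays at −0.20, −0.18 and −0.16. The casein arrays with estradiol lay at 0.075, 0.075 and 0.19, and the soy arrays with estradiol at 0.26, 0.24 and 0.096. The 6 estradiol arrays were thus all above the 6 others, and replicate 3 stood apart from its group on each diet, high on casein and low on soy.

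**Figure D1:**
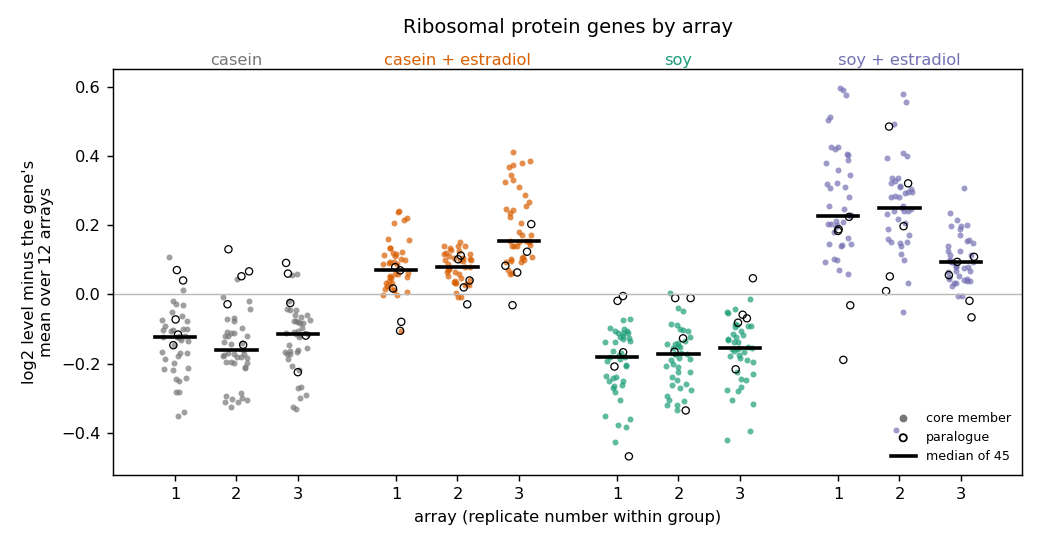
Log2 level of each of the 45 tested ribosomal protein genes minus that gene's own mean over 12 arrays (vertical axis), for each array by group and replicate number (horizontal axis); filled points are core members, open circles paralogues, and bars the median of 45. All bars of the 6 estradiol arrays lie above 0 and all bars of the 6 untreated arrays below it.

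Equally bright probe sets were counted for comparison. These were the 321 tested probe sets at least as bright as the lower quartile of the members (12.24 log2). Probe sets with a symbol that fits the name rule, alone or beside others, were left out. Of the 321, 19.9% rose and 24.6% fell on casein, with a median of −0.048. On soy 18.1% rose and 32.4% fell, with a median of −0.10. The members' median exceeded that of these bright probe sets by 0.29 log2 on casein and 0.44 on soy. Part of this distance is that the bright probe sets' own medians lay below 0. The number of casein calls depended on how the arrays were put on 1 scale. On deposited values 22 members rose instead of 30, with a median of 0.18. When arrays were centred on their medians without quantile normalization 15 rose, with a median of 0.14. The share of rises among all calls on casein, 52.6%, was 49.1% on deposited values and 40.8% with centring. The distance from the bright probe sets on casein was 0.29 on deposited values and with centring. Centring shifts every probe set of an array alike, so it could not change this distance from that on deposited values.

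The 5 members with the largest rises were all large-subunit proteins, on either diet. Rpl35, which sits beside the exit tunnel for the growing protein chain, measured 11.40, 11.43 and 11.47 on casein and 11.98, 11.84 and 12.11 with estradiol. On soy it measured 11.31, 11.40 and 11.42 without estradiol and 12.33, 12.23 and 11.93 with it. The groups did not overlap on either diet, and the differences were 0.55 ± 0.097 log2 (SE, n = 3 arrays a group; adjusted p = 0.00106, limma) on casein and 0.79 ± 0.097 (adjusted p = 0.000125) on soy. The rise on soy was 1.72-fold, the largest of any member.

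Rpl19, a large-subunit protein that reaches across to the small subunit, measured 12.78, 12.75 and 12.73 on casein and 13.28, 13.19 and 13.44 with estradiol. On soy the arrays read 12.75, 12.79 and 12.78, and with estradiol 13.57, 13.39 and 13.25. Untreated arrays were within 0.1 log2 of each other on both diets, and every estradiol array lay higher. It rose by 0.55 log2 on casein (adjusted p = 0.000399) and by 0.63 on soy (adjusted p = 0.000149). Rpl6 was at 12.004, 11.95 and 11.95 on casein, 12.47, 12.37 and 12.62 with estradiol, 11.88, 11.95 and 11.95 on soy, and 12.83, 12.59 and 12.49 on soy with estradiol. Its differences were 0.52 (adjusted p = 0.000779) and 0.71 (adjusted p = 0.00012), again with no overlap.

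Rpl14 measured 11.51, 11.47 and 11.46 on casein, 11.91, 11.90 and 12.18 with estradiol, 11.44, 11.48 and 11.53 on soy, and 12.30, 12.35 and 11.99 on soy with estradiol. It rose by 0.51 on casein (adjusted p = 0.00146) and by 0.73 on soy (adjusted p = 0.000171). Rpl13a, also known for leaving the ribosome to silence inflammatory messenger RNAs, was at 11.53, 11.70 and 11.75 on casein, 12.01, 11.98 and 12.22 with estradiol, 11.49, 11.56 and 11.48 on soy, and 12.30, 12.45 and 12.05 with both. The differences were 0.41 (adjusted p = 0.00694) and 0.76 (adjusted p = 0.000194). As in Rpl35 and Rpl14, replicate 3 was the highest of the casein arrays with estradiol and the lowest of the soy arrays with estradiol. Rpl22, an RNA-binding protein of the large subunit, rose by 0.47 on casein and 0.61 on soy (adjusted p = 0.000543 and 0.000113).

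Rpl3, which lies at the peptidyl transferase centre, measured 12.44, 12.37 and 12.36 on casein and 12.90, 12.81 and 13.07 with estradiol, a rise of 0.53 (adjusted p = 0.00536). On soy it measured 12.30, 12.43 and 12.37, and with estradiol 13.25, 12.60 and 12.96, a rise of 0.57 (adjusted p = 0.00301). Replicate 2 of soy with estradiol was the low array here. It was lower still for Rpl4, which helps to line the exit tunnel and is named here after its values were seen: 13.13, 12.33 and 12.94 on soy with estradiol, against 12.54, 12.64 and 12.55 on soy. Rpl4 was 0.38 log2 higher with estradiol on casein (adjusted p = 0.0577) and 0.22 on soy (adjusted p = 0.224), and passed on neither diet. Without that array the values were 0.38 (adjusted p = 0.000733) and 0.46 (adjusted p = 0.000582), and Rpl3 on soy came to 0.74 (adjusted p = 0.000219). In 4 of the 5 members with a dimmer probe set that was also tested, it differed in sign from the brighter on 1 diet, which was casein in 3 of them. The dimmer probe set of Rpl3, at a mean of 7.13 log2, was at −0.041 on casein (adjusted p = 0.734) and rose by 0.35 on soy (adjusted p = 0.00644). Rpl7 and Rps24, named here after their values were seen, rose on casein by 0.28 and 0.17 on the brighter probe set. Their dimmer probe sets, with means of 6.58 and 5.98 log2, stood at −0.16 (adjusted p = 0.321) and −0.081 (adjusted p = 0.539) on casein, and at 0.19 (adjusted p = 0.209) and 0.16 (adjusted p = 0.187) on soy, none of them past the test.

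**Figure D2:**
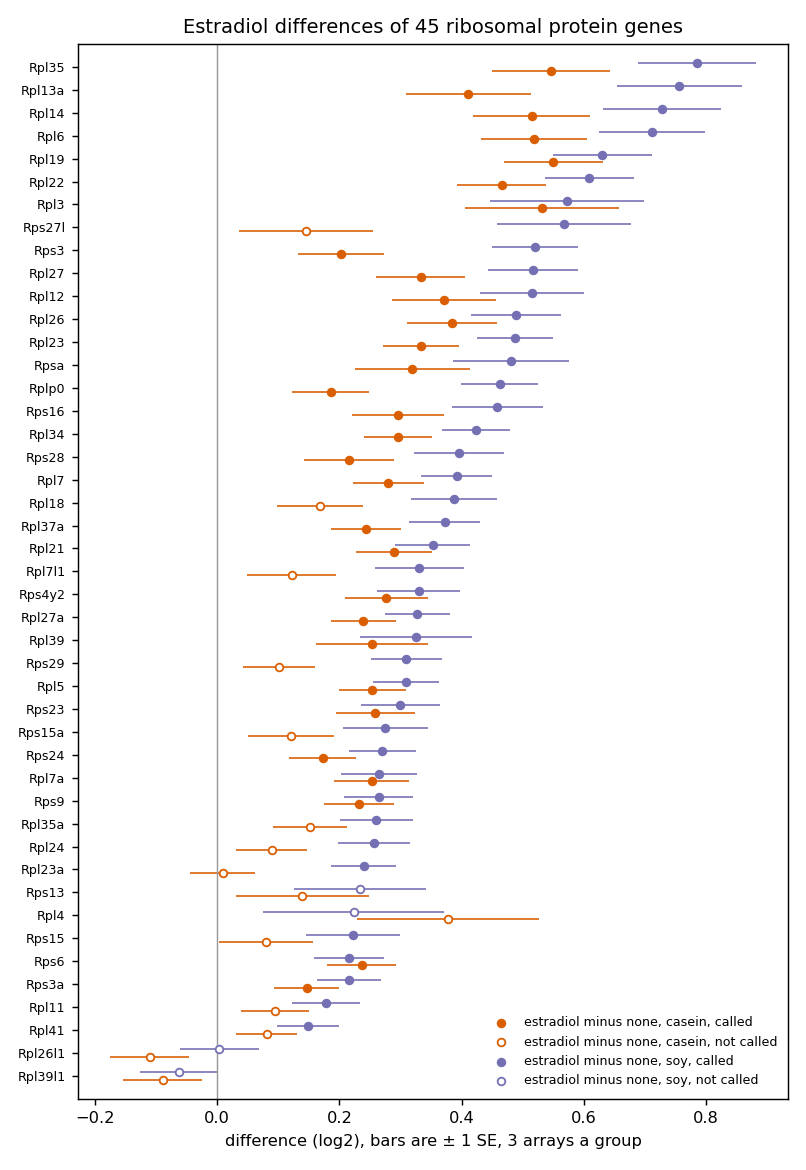
Estradiol minus untreated difference in log2 (horizontal axis) for each of the 45 tested ribosomal protein genes (vertical axis, ordered by the difference on soy); orange is casein, purple is soy, filled points passed at an adjusted p under 0.05, and bars are 1 SE with 3 arrays a group. On soy 41 points are filled and on casein 30, and Rpl39l1 and Rpl26l1 stand at the bottom, near 0.

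By subunit, 20 of 27 tested large-subunit and stalk genes rose on casein with a median of 0.29 log2, and 26 on soy with a median of 0.39. Of the 13 small-subunit genes, 9 rose on casein (median 0.20) and 12 on soy (median 0.28). No member of either subunit fell. Among the 13 members at 13 log2 or above, 8 rose on casein and 12 on soy, with medians of 0.17 and 0.27. Among the 27 between 11 and 13 log2 the counts were 21 and 26, with medians of 0.30 and 0.46. Of the 5 below 11 log2, 1 rose on casein and 3 on soy, with medians of 0.14 and 0.33. Over the 38 core members above 11 log2, intensity and difference had a Pearson correlation of −0.44 on casein and −0.67 on soy, across genes that share the same arrays. Median differences were thus smaller at 13 log2 or above than between 11 and 13 on both diets, and on casein they were lowest below 11. The members below 11 log2 include the paralogues Rpl26l1, Rps27l and Rpl7l1, so low intensity and being a paralogue cannot be told apart there. Whether the top of the intensity scale was compressed was not tested.

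Rplp0 anchors the stalk that recruits elongation factors. It measured 12.57, 12.55 and 12.59 on casein and 12.73, 12.71 and 12.82 with estradiol, a rise of 0.19 (adjusted p = 0.0316), and 12.42, 12.45 and 12.48 on soy and 13.02, 12.92 and 12.80 with estradiol, a rise of 0.46 (adjusted p = 0.000202). The arrays did not overlap on either diet. The casein call was lost under 8 of the 20 other settings tried (adjusted p 0.0548 to 0.243), among them leaving out casein replicate 1, 2 or 3 or casein with estradiol replicate 1 or 3. The soy call was kept under all of them.

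In the small subunit, Rpsa, the laminin receptor precursor, was read by 3 probe sets, and all 3 rose on both diets, by 0.26 to 0.32 on casein and by 0.35 to 0.52 on soy. Its brightest probe set measured 11.78, 11.61 and 11.79 on casein, 11.97, 11.94 and 12.23 with estradiol, 11.67, 11.66 and 11.73 on soy, and 12.31, 12.19 and 12.003 with both. Its casein rise (adjusted p = 0.0169) did not pass without casein replicate 2 (adjusted p = 0.075) or without casein with estradiol replicate 3 (adjusted p = 0.0806). Rps6, the substrate of S6 kinase downstream of mTOR, measured 13.15, 13.07 and 13.16 on casein, 13.32, 13.35 and 13.42 with estradiol, 13.16, 13.22 and 13.18 on soy, and 13.47, 13.42 and 13.31 with both. It rose by 0.24 on casein and by 0.22 on soy (adjusted p = 0.0056 and 0.00788). The bright genes Rps29, Rpl27a and Rps23 rose by 0.31, 0.33 and 0.30 on soy. On casein Rpl27a and Rps23 rose by 0.24 and 0.26, and Rps29 was at 0.10 (adjusted p = 0.181).

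Of the 5 paralogues tested, 1 rose on casein and 3 on soy, and 0 fell. Rpl39l1 measured 13.24, 13.26 and 13.29 on casein and 13.12, 13.24 and 13.16 with estradiol. On soy it measured 13.19, 13.18 and 13.24, and with estradiol 13.01, 13.25 and 13.18. On casein the lowest untreated array and the highest estradiol array had the same value (13.24), and on soy the groups overlapped. The differences of Rpl39l1 were −0.089 (adjusted p = 0.284) and −0.062 (adjusted p = 0.434). Its core partner Rpl39, a short protein of the exit tunnel, measured 9.26, 9.26 and 9.40 on casein, 9.53, 9.51 and 9.65 with estradiol, 9.34, 9.31 and 9.42 on soy, and 9.90, 9.59 and 9.55 with both. Rpl39 rose by 0.25 on casein (adjusted p = 0.0412) and by 0.33 on soy (adjusted p = 0.0114). The casein call of Rpl39 was lost under 11 of the 20 other settings (adjusted p 0.0509 to 0.274), among them leaving out casein replicate 1 or 2, any casein array with estradiol, or any untreated soy array.

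Rpl26l1 measured 6.57, 6.63 and 6.56 on casein and 6.39, 6.47 and 6.56 with estradiol, and 6.48, 6.49 and 6.43 on soy and 6.47, 6.51 and 6.43 with estradiol. Its differences of −0.11 (adjusted p = 0.186) and 0.0034 (adjusted p = 0.969) did not pass. This probe set lies only slightly above the filter. Its core partner Rpl26 measured 12.72, 12.78 and 12.75 on casein, 13.08, 13.08 and 13.25 with estradiol, 12.72, 12.79 and 12.72 on soy, and 13.35, 13.26 and 13.08 with both. It rose by 0.38 (adjusted p = 0.00169) and 0.49 (adjusted p = 0.000339) without overlap. Whether paralogue and core gene differed in response was not tested.

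**Figure D3:**
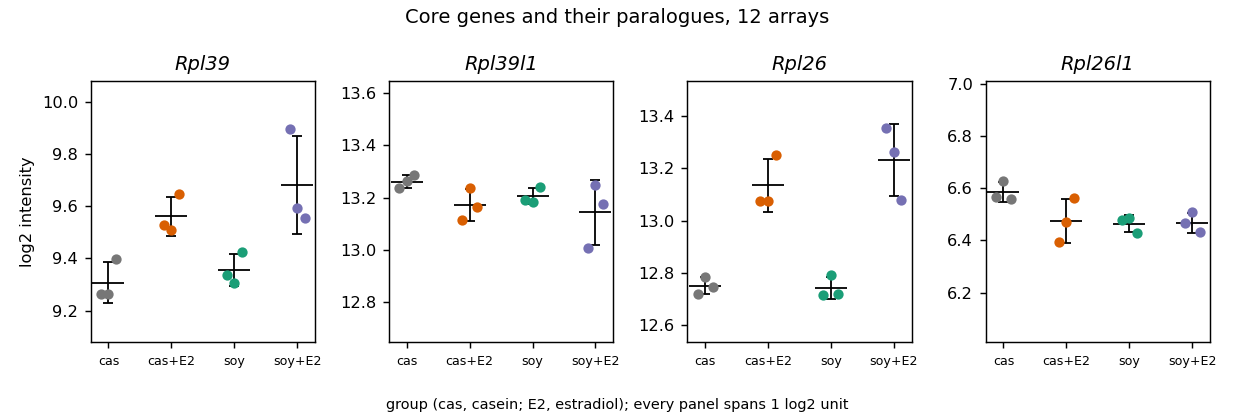
Log2 intensity (vertical axis, every panel spanning 1 log2 unit) of Rpl39, Rpl39l1, Rpl26 and Rpl26l1 in the 4 groups (horizontal axis; cas is casein, E2 is estradiol); points are arrays, and bars show the mean ± SD of 3 arrays. The estradiol arrays of Rpl39 and Rpl26 lie above the untreated ones. Those of Rpl26l1 overlap with them on both diets, and those of Rpl39l1 overlap on soy and meet them at an equal value on casein.

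Rps27l, a p53-responsive paralogue of Rps27, measured 6.87, 7.04 and 6.87 on casein, 7.06, 7.09 and 7.07 with estradiol, 6.52, 6.65 and 6.91 on soy, and 7.21, 7.47 and 7.10 with both. It rose by 0.57 on soy (adjusted p = 0.0014), while on casein it was 0.15 higher (adjusted p = 0.306). Rpl7l1 rose by 0.33 on soy (adjusted p = 0.00297) and was at 0.12 on casein (adjusted p = 0.194). The dimmer probe set of Rpl7l1 gave the opposite, 0.30 on casein (adjusted p = 0.0399) and −0.017 on soy (adjusted p = 0.904), so this gene has no settled diet pattern. Rps4y2, a homologue of Rps4, rose on both diets, by 0.28 and 0.33 (adjusted p = 0.0066 and 0.00209).

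The start regions of the 6 genes among the 5 largest rises on either diet, of Rplp0 and of Rpl39, Rpl26 and their paralogues are shown because a pyrimidine tract at the start is the feature these genes are known to share. RefSeq promoter sequences (assembly GRCr8) were matched to 41 of the 48 members. Each line gives 20 bases before and 20 bases after the RefSeq start on the gene's own strand, 5′ to 3′, with the longest unbroken run of C and T in capitals. RefSeq starts may differ from the starts used in the testis.
Rpl35 (chr3:43165902-43165941, minus strand): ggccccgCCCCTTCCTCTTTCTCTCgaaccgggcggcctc
Rpl14 (chr8:129163600-129163639, plus strand): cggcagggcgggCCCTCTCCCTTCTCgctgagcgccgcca
Rpl13a (chr1:104748894-104748933, minus strand): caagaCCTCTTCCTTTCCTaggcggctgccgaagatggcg
Rpl19 (chr10:83519044-83519083, plus strand): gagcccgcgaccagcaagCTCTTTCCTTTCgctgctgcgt
Rplp0 (chr12:46718371-46718410, minus strand): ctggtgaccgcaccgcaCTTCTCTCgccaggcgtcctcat
Rpl6 (chr12:41011671-41011710, minus strand): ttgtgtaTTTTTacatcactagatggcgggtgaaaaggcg
Rpl3 (chr7:113507971-113508010, minus strand): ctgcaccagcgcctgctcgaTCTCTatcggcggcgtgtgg
Rpl39 (chrX:121195877-121195916, minus strand): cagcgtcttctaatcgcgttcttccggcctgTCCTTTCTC
Rpl39l1 (chr10:5966602-5966641, minus strand): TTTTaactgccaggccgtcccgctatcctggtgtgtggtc
Rpl26 (chr10:54109672-54109711, plus strand): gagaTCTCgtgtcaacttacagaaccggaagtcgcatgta
Rpl26l1 (chr10:17029009-17029048, minus strand): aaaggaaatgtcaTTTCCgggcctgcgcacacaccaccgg

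Of the 41 members, 26 (63.4%) had a run of at least 8 C or T bases in this window, searched on the gene's strand only. Of all 33469 promoters in the table, 5199 (15.5%) had such a run. The run covered or touched the first transcribed base in 16 of the 26 members, and in others, such as Rpl13a and Rpl39, it lay before or after it. In Rpl35 the run was 18 bases long and in Rpl19 12, while in Rpl3 and Rpl6, which also rose on both diets, the longest run was 5. Among the tested members, 24 had a run, of which 19 rose on casein (median 0.26) and 22 on soy (median 0.34). Of the 15 without a run, 7 rose on casein (median 0.15) and 13 on soy (median 0.33). These counts are a description of the windows, not of the transcripts in the testis.

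A further 36 probe sets carried a ribosomal protein symbol together with other symbols and could not be given to 1 gene. Of the 35 that passed the filter, 20 rose and 0 fell on casein (median 0.16 log2), and 25 rose and 0 fell on soy (median 0.24). They were no part of the counts above. Outside the name rule, Rack1, a scaffold on the head of the small subunit, measured 11.30, 11.27 and 11.31 on casein, 11.68, 11.70 and 11.94 with estradiol, 11.22, 11.19 and 11.25 on soy, and 12.09, 11.97 and 11.77 with both. It rose by 0.48 (adjusted p = 0.00131) and 0.73 (adjusted p = 0.000118). Over the 12 arrays Rack1 was also the gene most like the mean of the members, with a Pearson correlation of 0.997, followed by Abcd3 (0.994), Uri1 (0.994), Sec61g (0.992) and Sdhb (0.992). These points share their arrays and 4 groups, and the values are a description.

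Among the members themselves, 35 of 45 correlated above 0.9 with the mean of the other members over the 12 arrays, with a median of 0.96. The lowest were Rpl39l1 (−0.54), Rpl26l1 (−0.23), Rpl4 (0.52) and Rps13 (0.54), which are also the 4 members that rose on neither diet. Correlations and calls come from the same arrays and groups, so this match is not a separate result. All 30 members that rose on casein were among the 41 that rose on soy.

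Soy alone moved no ribosomal protein gene past the test. Without estradiol, 0 of 45 members rose and 0 fell on soy relative to casein, beside 6.63% and 3.11% of all probe sets, and the median was −0.041 log2. At an unadjusted p under 0.05, 0 were higher and 1 was lower (limma), namely Rpl23a (adjusted p = 0.0826), a difference of −0.16 and a gene named after its values were seen: it measured 13.07, 13.16 and 13.17 on casein and 12.99, 12.98 and 12.96 on soy. The fell count was 1 on deposited values and 3 with arrays centred on medians. The share of rises among all calls, 68.1%, went to 49.5% and 36.7% under those scalings, and the median of all probe sets from −0.017 to −0.084 and −0.11. Under estradiol, soy against casein again gave 0 and 0, beside 0.0046% and 0% of all probe sets, with a median of 0.095. At an unadjusted p under 0.05 (limma), 3 members were higher, a count without the share of all probe sets beside it. These soy comparisons share arrays with the estradiol comparisons above.

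The estradiol difference was larger on soy than on casein in 43 of the 45 members. The median of this interaction was 0.13 log2, and it ran from −0.15 to 0.42. Of all probe sets, 10982 of 21729 had an interaction above 0, with a median of 0.0029. Of the 321 equally bright probe sets, 138 did, with a median of −0.037. The members share the same arrays and most vary together, so their 45 signs are not separate observations. None of the members' interactions passed: 0 members were called in either direction, beside 1.12% and 2.29% of all probe sets. At an unadjusted p under 0.05 (limma), 7 members were higher and 0 lower, again without the share of all probe sets beside them. The smallest adjusted p was that of Rps3, which lies at the messenger RNA entry channel and is named after its values were seen, with an interaction of 0.32 ± 0.099 (adjusted p = 0.0956), and Rplp0 stood at 0.28 (adjusted p = 0.103). The counts of 30 and 41 rises therefore do not show that diet changed the response. Single soy arrays with estradiol moved these values. Without replicate 3 the estradiol median on soy was 0.39, the soy against casein median under estradiol went from 0.095 to 0.15, and 2 members passed the interaction. Without replicate 1 or replicate 2 the soy against casein median under estradiol was 0.058 or 0.062. The share of rises among all interaction calls, 32.9%, went to 45% on deposited values and 58.9% with arrays centred on medians.

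Genes that build ribosomes were counted next to the ribosomal proteins. Of 47 ribosome biogenesis genes tested, 18 rose and 2 fell on casein (median 0.17), and 29 rose and 5 fell on soy (median 0.25). The 3 with the smallest p were the same on both diets. Mdn1, the giant ATPase that remodels large-subunit precursors, rose by 0.91 and 0.75 (adjusted p = 2.23e-05 and 8.44e-05). Fbl, the methyltransferase of ribosomal RNA, rose by 0.63 and 0.75, and Ddx21, a nucleolar helicase, by 0.56 and 0.60.

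Of 14 genes of RNA polymerase I and its factors, 5 rose and 0 fell on casein, with a median of 0.0054, and 7 rose and 0 fell on soy, with a median of 0.15. Among them Ubtf, which binds ribosomal DNA, rose by 0.37 and 0.57, and the subunit Polr1f by 0.35 and 0.62. Growth control genes, 15 in number, gave 6 rises and 1 fall on each diet, with medians of 0.18 and 0.14. Rheb, the activator of mTOR complex 1, rose by 0.52 and 0.59, and Rictor, of mTOR complex 2, by 0.62 and 0.63. Rps6kb1, the S6 kinase, rose by 1.03 with estradiol on casein (adjusted p = 2.76e-05) and by 0.74 with soy alone (adjusted p = 0.000872), and its interaction was −0.86 (adjusted p = 0.00985). Mlst8, a subunit of both mTOR complexes, fell by 0.39 on soy.

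Other translation genes were counted in the same way. Of 15 elongation factors and other genes with a terminal oligopyrimidine tract, 5 rose and 1 fell on each diet, with medians of 0.075 and 0.12. Eef1a1, which delivers aminoacyl-tRNA, was at 0.20 (adjusted p = 0.0641) and 0.059 (adjusted p = 0.551), and Eef2, the translocation factor, at 0.051 (adjusted p = 0.683) and 0.066 (adjusted p = 0.57). Both were lowest among the soy arrays with estradiol in replicate 2 (13.44 and 12.02), the array that was also low for Rpl3 and Rpl4. Eef1d fell by 0.32 on casein and Nap1l1, a histone chaperone, rose by 0.51 and 0.39. Of 27 initiation factors, 5 rose and 4 fell on casein and 6 rose and 6 fell on soy, with Eif3a, the scaffold of eIF3, rising by 0.70 on each diet.

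Mitochondrial ribosomal proteins, which serve a separate ribosome, showed no common rise on casein: 11 of 73 rose and 12 fell, with a median of −0.0079. On soy 29 rose and 2 fell, with a median of 0.17. Mrpl16 rose by 0.37 and 0.58 and Mrpl13 by 0.42 and 0.58. The median interaction of these 73 genes was 0.22, and 0 passed.

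**Figure D4:**
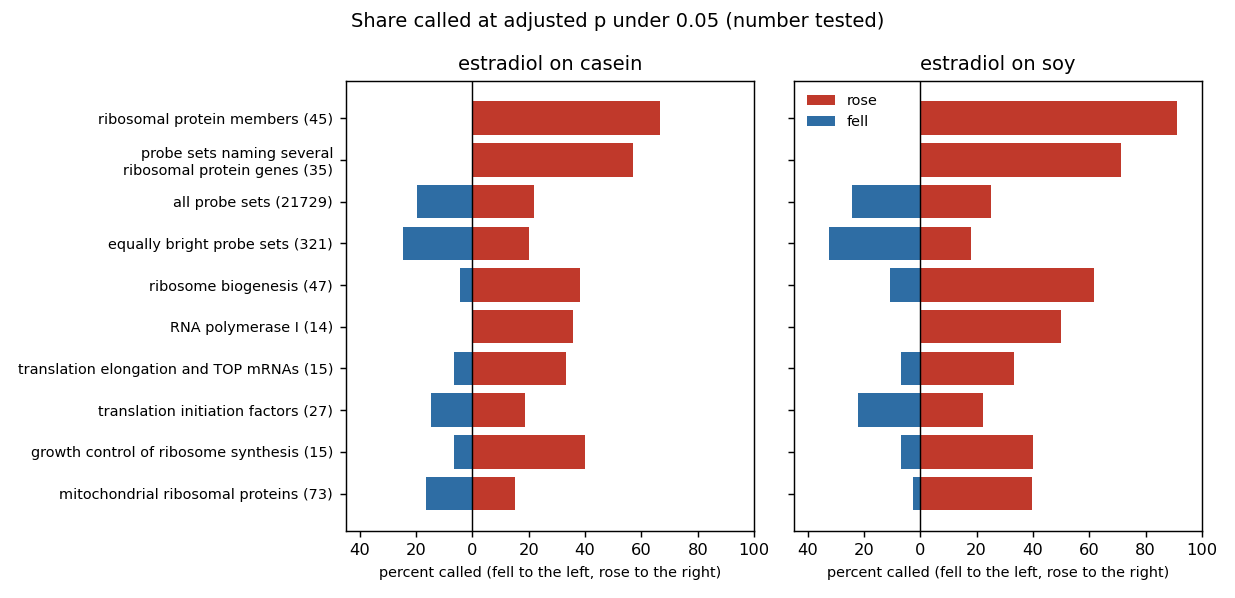
Percent of tested genes or probe sets that rose (red, to the right of 0) or fell (blue, to the left) with estradiol at an adjusted p under 0.05, on casein (left panel) and soy (right panel), for the ribosomal protein genes, all probe sets, equally bright probe sets and related gene lists; the number tested is in brackets. The ribosomal protein genes have red bars of 30 of 45 and 41 of 45 and no blue bar.

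Marker genes of several cell types also differed between the same groups. Of 14 spermatid genes tested, 13 fell on each diet, with medians of −0.74 and −0.54. Tnp2 measured 13.84, 13.94 and 13.92 on casein, 13.24, 12.89 and 12.33 with estradiol, 13.80, 13.82 and 13.82 on soy, and 12.68, 13.07 and 13.32 with both. Of 15 Sertoli cell genes, 11 rose and 1 fell on casein (median 0.63), and 12 rose and 0 fell on soy (median 0.69). Ctsl, a Sertoli cell protease, measured 10.53, 10.55 and 10.51 on casein, 11.84, 11.97 and 12.24 with estradiol, 10.49, 10.41 and 10.52 on soy, and 12.51, 11.91 and 12.13 with both.

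Early meiotic genes gave 5 rises of 5 on casein and 4 of 5 on soy, and pachytene spermatocyte genes 3 and 4 falls of 6 with no rise. Spermatogonial genes gave 4 rises and 2 falls of 9 on casein and 4 and 1 on soy. Leydig cell genes gave 1 rise and 5 falls of 9 on casein and 2 and 6 on soy, and macrophage genes 0 rises and 8 falls of 12 on casein and 1 and 2 on soy. Peritubular myoid genes gave 0 calls of 7 on casein and 1 rise on soy, adipose genes 2 rises and 2 falls of 7 and then 1 and 2, and blood genes 1 rise of 3 on casein and 1 rise and 2 falls on soy. Striated muscle genes gave 0 calls of 6 on casein and 1 rise and 1 fall on soy, and their mean deviation reached 1.51 log2 in casein with estradiol replicate 2, the highest of all arrays.

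Arrays within the estradiol groups also differed in these markers. The mean deviation of the spermatid genes was −0.16, −0.25 and −0.79 in the casein arrays with estradiol and −0.54, −0.29 and −0.031 in the soy arrays with estradiol. In the untreated arrays it lay between 0.29 and 0.39. Casein with estradiol replicate 3, lowest for the spermatid genes, was highest for the ribosomal protein genes, and soy with estradiol replicate 3, least low for the spermatid genes, was lowest for them among the soy arrays with estradiol. On soy with estradiol the order was mirrored over all 3 replicates (members 0.26, 0.24 and 0.096). On casein with estradiol the members were almost equal in replicates 1 and 2 (0.0752 and 0.0748), so their order there says little. The Sertoli genes stood at 0.32, 0.22 and 0.50 on casein with estradiol, where replicate 3 was highest, as for the members. On soy with estradiol they stood at 0.53, 0.17 and 0.33. Replicate 1 was highest there, as for the members, but replicate 2 and not replicate 3 was lowest. The lowest array of each estradiol group for the spermatid genes (replicate 3 on casein, replicate 1 on soy) was then left out. In that setting 26 members rose on casein (median 0.21) and 41 on soy (median 0.34). The estradiol arrays kept (−0.16 and −0.25 on casein, −0.29 and −0.031 on soy) still lay below all untreated arrays for the spermatid genes. These counts therefore cannot separate the members' rise from the fall of the spermatid genes. Whether the differences in these marker genes have a part in the members' rise was not tested.

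**Figure D5:**
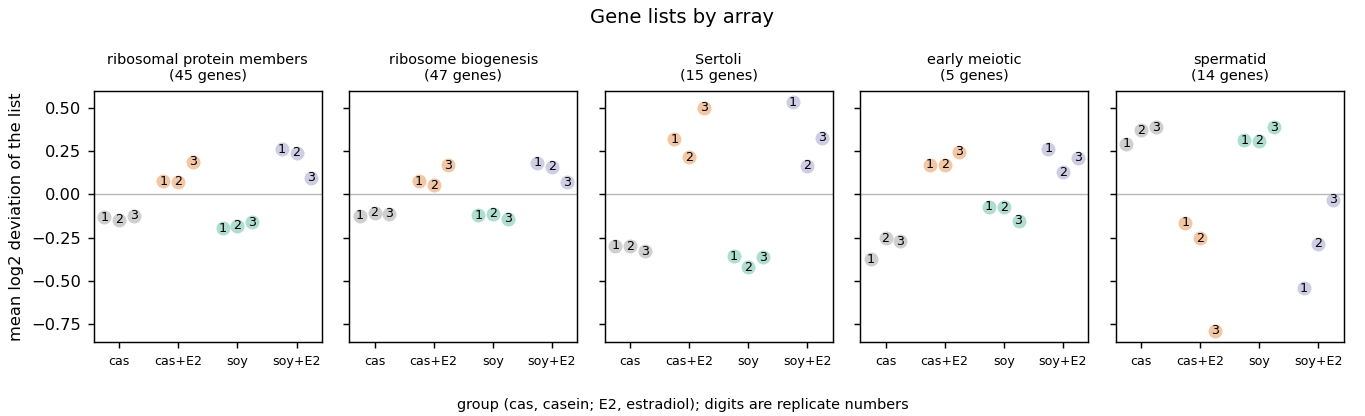
Mean log2 deviation of each gene list from its own 12-array mean (vertical axis) in every array, by group (horizontal axis; cas is casein, E2 is estradiol), with replicate numbers inside the points. Ribosomal protein, ribosome biogenesis, Sertoli and early meiotic genes are higher in all 6 estradiol arrays than in the 6 untreated arrays, and spermatid genes are lower.

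As a sign of RNA quality, the 3′ minus 5′ difference of the beta-actin control probe sets lay between 1.56 and 1.66 log2 on casein, 1.55 and 1.94 on casein with estradiol, 1.49 and 1.56 on soy, and 1.498 and 2.00 on soy with estradiol. That of GAPDH stayed between −0.44 and −0.30 on all arrays. The highest actin values were thus in estradiol arrays, and their part in the members' rise was not tested.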

How the data were processed

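Testis RNA was measured on 12 arrays, 3 in each of 4 groups. The authors deposited log2 intensities per probe set, a scale inferred from their range. GCOS made them, per the submitters' processing notes; its version, the background correction, any normalization and any batch are not given in the sources used here, nor is whether each array held a separate animal, so p-values measure only the spread between these samples. The deposited array medians lay between 6.72 and 6.79 log2, but the upper quartiles ranged over 0.185, so quantile normalization was applied. Of 31099 probe sets, 57 controls and the 30% with the lowest means were left out, and 21729 were tested with limma 3.58.1 (R 4.3.3): 1 model with 4 groups, eBayes with trend, 8 residual degrees of freedom, and Benjamini-Hochberg adjustment over all probe sets at 0.05. The median SE of a difference was 0.0923 log2, and the number of arrays limits the precision. Symbols came from the platform annotation: 20832 probe sets had 1 symbol and 436 several, and 46 of the 48 members had their Entrez ID in the GRCr8 gene table, with 0 changed symbols. On simulated data the procedure recovered 64% of 100 shifts of 0.5 log2 and 92% of 100 shifts of 1 log2, with 4 false calls among 160. Shifts as small as the members' medians were not simulated. The simulated noise was normal and independent between probe sets, few probe sets were shifted, and quantile normalization was not part of the simulation. These rates therefore do not carry over to the real arrays, where many probe sets differed and the members varied together.

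The members and lists were chosen with earlier results of these data known. Named members were the 5 largest rises and falls per comparison among calls whose groups did not overlap, the stalk proteins, paralogues and their core partners (Rpl22 included), Rps6, Rpsa, the 3 highest and 3 lowest means, members with probe sets called in opposite directions, the 3 smallest p of each other list, and the 5 genes most like the members; others are marked as named after their values were seen. Alternatives were other scalings, filters, probe sets and left-out arrays.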

Additional observations from a re-analysis of the deposited data

How the results depend on the processing

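Each result was recomputed under 20 other settings and, as a further setting, with dimmer probe sets in place of the brighter ones. On casein the 30 rises became 22 on deposited values and 15 with arrays centred on medians. The median of 0.24 became 0.18 on deposited values and 0.14 with centring. The soy fall count without estradiol, 0, was 1 on deposited values, 3 with centring and 1 with the dimmer probe sets, and its median −0.11 with centring. Soy against casein under estradiol had a median of 0.038 without 2 arrays that an earlier look at these data had set aside (casein with estradiol replicate 2, in which striated muscle genes stood high, and replicate 1 of the soy arrays with estradiol). The interaction gave 1 rise on deposited values and 1 with centring, and a median of 0.20 with centring. Leaving out 1 array at a time gave 23 to 33 rises on casein and 38 to 41 on soy (median 0.32 to 0.39), 0 to 1 falls with soy alone (1 without soy with estradiol replicate 2), 0 to 1 rises (median 0.058 to 0.15) with soy under estradiol, and 0 to 2 interaction rises. Rpl3 on casein and Rpl7l1 on soy changed sign with the dimmer probe set (−0.041, adjusted p = 0.734, and −0.017, adjusted p = 0.904), as did Rpl7 and Rps24 on casein (−0.16 and −0.081). Rpl13a, Rpl27a and Rps23 lost their casein call only with centring (adjusted p 0.0818 to 0.103). The call of Rps4y2 on casein was lost on deposited values and with centring (adjusted p = 0.0872 and 0.219), as was that of Rpsa (adjusted p = 0.109 and 0.20). The cause of these changes was not tested. With the replicate number as a block, 25 members rose on casein and 41 on soy; the numbers share only a name, since same-numbered arrays correlated at −0.361 to 0.352 in their deviations, 4 of 18 pairs above 0.1, and 4 of 12 arrays correlated best with their own number. Of 2205 values of 22 named members, 2087 kept direction and call, 28 lost and 11 gained a call, 2 called values changed sign, and 77 uncalled values changed sign.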
